A study of Mus musculus with 24 samples.

Results

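RNA was compared between mouse definitive endoderm cells at 24 h and at 48 h of endoderm culture, both after 21 h with dTAG13, the agent used to remove OTX2. The comparison rested on 6 of the 24 libraries of the series. The group DE1_dTAG (24 h) and the group DE2_dTAG (48 h) each held 3 libraries, 1 from each of the cell lines 7H, 7H1 and 7H2, and the libraries were paired by line. All cells carried OTX2-dTAG-EGFP on a BL6/129 hybrid background, the DMSO controls included. The labels do not say whether the lines were derived independently, and p-values measure only the spread between them. Epiblast stem cells became primitive streak during 16 h in 40 ng/ml activin A with 3 µM of the WNT pathway activator CHIR. For endoderm, activin A was raised to 100 ng/ml and 100 nM LDN, which blocks BMP receptors, was added. The same step in DMSO, from DE1_DMSO to DE2_DMSO, was measured in 6 other libraries of the same lines. Per the labels, dTAG13 or DMSO was added at 1 of 3 earlier stages and cells were harvested after 21 h. The 48 h cells are therefore read here as having met dTAG13 only from about the 24 h stage on. On that reading the 2 groups are not 2 times of one depleted culture, and the difference between them holds both the passage of time and a different window without OTX2.

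OTX2 belongs to the paired-like homeobox factors and acts in the epiblast, the anterior visceral and definitive endoderm and the forebrain. Homeobox factors of its type bind TAATCC and close variants in DNA. Definitive endoderm leaves the primitive streak under high NODAL or activin signalling, passes through a state with mesenchymal traits, and becomes an epithelium that gives rise to the gut tube, lung, liver and pancreas. A dTAG fusion protein is destroyed by the proteasome when dTAG13 links it to a ubiquitin ligase, so the transcript stays and does not show whether the protein was lost.

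The Otx2 transcript was read first. Its normalised read count was 12024, 13704 and 13790 at 24 h and 10553, 13640 and 13218 at 48 h with dTAG13, in the lines 7H, 7H1 and 7H2. The groups overlapped, and the step of −0.09 ± 0.15 on the log2 scale (SE, n = 3 against 3) was not called (limma, Benjamini-Hochberg adjusted p = 0.688). Otx1, the related factor, was low, at 42.4 to 63.7 at 24 h and 13.8 to 16.2 at 48 h. Its groups did not overlap and it fell by 1.81 ± 0.47 (limma, adjusted p = 0.00447), a call that was missed without the line 7H (adjusted p = 0.0636).

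The libraries were of like size, with totals of 25.23 to 26.53 M and a depth, estimated from low values, of 25.61 to 32.83 M. Of the 8 markers of definitive endoderm, 7 were at 554 or more in all 6 libraries, while Epcam was at a mean of 20 at 24 h and 48.2 at 48 h. The summed level of 4 streak markers was 21024 to 24574 at 24 h and 4735 to 8036 at 48 h. The summed level of 4 pluripotency markers was 1975 to 3450 at 24 h and 1252 to 4270 at 48 h, the highest value being that of the line 7H2. Markers of 5 visceral endoderm genes summed to 19.9 to 30.3 and then 147 to 382, nearly all of it Rhox5, while Afp was listed at 0 at 24 h and Ttr at 0 at 48 h. Markers of mesoderm, cardiac muscle, endothelium and blood, neural cells and trophoblast summed to at most 1496 in any of these libraries, and Myh6 was listed at 0. That highest sum was of endothelium and blood at 24 h, nearly all of it Gata1, and at 48 h that sum was 118.5 to 409.3. The neural sum at 24 h was 558 to 740 with dTAG13 and 85.9 to 113 in DMSO, most of it Tubb3. In bulk RNA, fewer cells of a type and less RNA per cell cannot be told apart.

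Of 15037 genes tested, 2990 (19.9%) were higher and 2916 (19.4%) lower at 48 h than at 24 h with dTAG13 (limma, Benjamini-Hochberg adjusted p under 0.05). Together these made 39.3% of the genes tested, and 40.3% were called in DMSO. At least 2-fold changes were called in 1350 genes (8.98%) upward and 1212 (8.06%) downward. In DMSO the same step called 3122 genes higher (20.8%) and 2942 lower (19.6%), with 1687 (11.2%) and 790 (5.25%) at 2-fold or more. The dTAG13 and DMSO steps share no library. Of the genes higher with dTAG13, 1935 (64.7%) were also higher in DMSO, which is 62% of the DMSO rises, and of those lower, 1770 (60.7%) were also lower, which is 60.2% of the DMSO falls. A further 46 genes rose with dTAG13 and fell in DMSO, and 63 did the reverse. Across genes, which are not independent replicates, Pearson's r between the 2 steps was 0.605 and Spearman's rho 0.615.

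The difference between the steps was tested directly, as the dTAG13 step minus the DMSO step. It was called higher in 1146 genes (7.62%) and lower in 1112 (7.4%). At 2-fold or more the numbers were 263 (1.75%) and 755 (5.02%); among differences of that size, those in the negative direction were the more numerous. Scaling the libraries to equal totals gave 835 higher and 1287 lower. Without pairing by line 439 and 456 were called, and leaving out 1 line gave 443 to 607 higher and 514 to 585 lower.

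**Figure D1:**
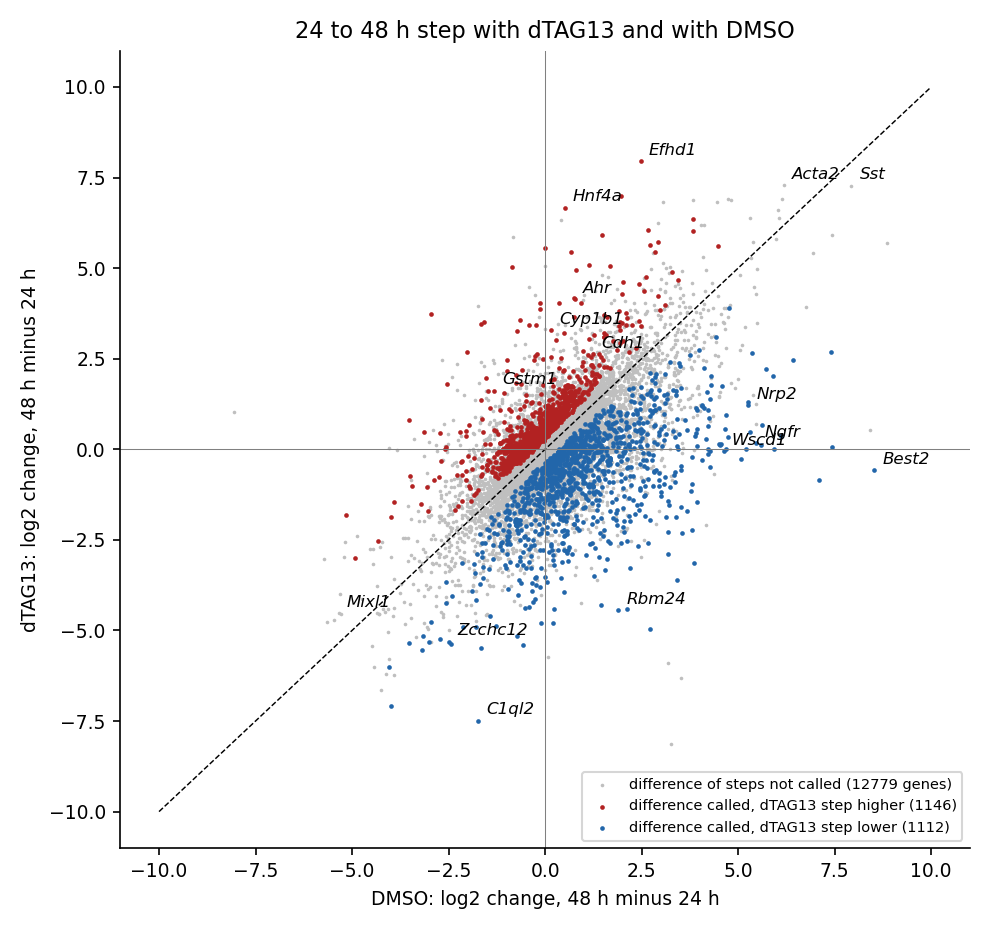
Log2 change from 24 h to 48 h with dTAG13 (vertical axis) against the same change with DMSO (horizontal axis) for 15037 tested genes, with genes coloured where the difference of the steps was called. Genes scatter about the dashed line of equal steps, the 1146 genes with a higher dTAG13 step lie above it, and the 1112 with a lower one lie below it.

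The largest rises with dTAG13 included muscle actins, endocrine genes and an integrin, and most of them were at a few reads at 24 h. Of all genes higher with dTAG13, 64.7% were also higher in DMSO, and Acta2 and Sst rose with both treatments. A rise given without DMSO values is therefore not shown to be particular to dTAG13. Values are of the dTAG13 libraries unless DMSO is named. Acta2, the smooth muscle actin, was at 6.36, 17.5 and 11 at 24 h and at 2078, 1092 and 2761 at 48 h. All 3 lines rose by a wide margin, and the change was 7.29 ± 0.46 (limma, adjusted p = 1.77e-09). Itgb8, an integrin subunit that binds latent TGF-beta, went from 21.7, 31.2 and 25.2 to 1600, 1446 and 2298, a change of 6.03 ± 0.38 (limma, adjusted p = 9.22e-10). Itgb8 reached 1027, 441 and 832 in DMSO at 48 h, and its step was larger with dTAG13 by 2.21 ± 0.40 (limma, adjusted p = 0.00254; 0.0533 without the line 7H2). Sst, the peptide hormone somatostatin, was at 0, 0 and 2.95 and then at 197, 252 and 295 (7.28 ± 0.67, limma adjusted p = 1.14e-07). Rfx6, a factor of pancreatic and gut endocrine development, went from 1.8, 5.77 and 0 to 228, 438 and 331 (6.92 ± 0.67, limma adjusted p = 2.14e-07). Neither of these endocrine genes had overlapping groups. Rfx6 rose in DMSO as well, from 31.2, 126 and 78.4 to 1272, 2789 and 1730, and its difference of steps, 2.18 ± 0.91, was not called (limma, adjusted p = 0.131).

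Of 7 further named rises, Nr0b1, a nuclear receptor that represses steroidogenic factors, was listed at 0 in all 3 libraries at 24 h and at 464, 123 and 29.3 at 48 h. Its lines spread widely at 48 h. Hnf4a, a nuclear receptor of liver and visceral endoderm, reached 16.6, 300 and 584, also with a wide spread, from at most 1.95. Cxcl11, a chemokine, reached 106, 488 and 384, and Eya4, a cofactor of homeobox factors, 229, 155 and 414. Myl3 and Acta1, a myosin light chain and the skeletal actin, reached 209 to 257 and 78.4 to 540. Ptchd1, a patched-domain protein, reached 147 to 266. In all of these the 24 h and 48 h groups did not overlap, as in 52.2% of all tested genes, and limma's adjusted p was 4.27e-05 or less. Their fitted changes, 5.93 to 6.91 on the log2(value + 1) scale, depend on the added 1 because the 24 h values lie at a few reads.

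Efhd1, a mitochondrial calcium-binding protein, rose the most on this scale. It was at 5.77, 4.13 and 0 at 24 h and at 1384, 381 and 978 at 48 h with dTAG13. In DMSO it was at 8.76, 3.32 and 3.97 and then at 60.5, 11.7 and 44.9. The dTAG13 values at 48 h stood above all others, the step was 7.94 ± 0.66 (limma, adjusted p = 3.39e-08), and it exceeded the DMSO step by 5.47 ± 0.82 (limma, adjusted p = 0.000709). Efhd1 lies on chromosome 1 at 87264363 to 87310839 (GRCm38, plus strand). Of the 44 genes that met the rule for the size of their step or of their difference, 36 had promoters, 46 in all, in the RefSeq table used. Among these 36 genes, only Efhd1, Rfx6 and Wscd1 had a promoter that held TAATCC. The bases before the start sites of Efhd1 and Rfx6 are shown because both genes were at a few reads at 24 h with dTAG13 and were among the largest rises, RefSeq GRCm38.p6, plus strand, 5′ to 3′, with TAATCC, or its reverse complement, in capitals.
Efhd1, chr1:87264103-87264352: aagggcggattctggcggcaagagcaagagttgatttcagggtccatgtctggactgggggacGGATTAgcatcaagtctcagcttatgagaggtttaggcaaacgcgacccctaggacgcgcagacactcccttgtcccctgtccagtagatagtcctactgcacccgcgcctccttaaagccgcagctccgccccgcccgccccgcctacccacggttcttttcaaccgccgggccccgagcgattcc
Rfx6, chr10:51685268-51685517: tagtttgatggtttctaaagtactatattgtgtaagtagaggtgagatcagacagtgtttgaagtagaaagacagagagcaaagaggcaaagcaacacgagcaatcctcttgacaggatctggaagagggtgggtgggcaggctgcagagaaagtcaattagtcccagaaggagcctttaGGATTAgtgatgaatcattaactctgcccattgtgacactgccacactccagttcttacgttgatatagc
In both, the motif lies on the strand opposite to the gene. Among the promoters of all tested genes, 731 of 14370 (5.09%) held TAATCC on either strand in the 250 bases before the start. The share was 3.53% (95% Wilson interval 2.61 to 4.78) for genes with a higher dTAG13 step and 5.14% (3.98 to 6.61) for those with a lower one. A match is a description of these letters and not a binding site.

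The largest falls with dTAG13 included neuronal surface and synaptic proteins, a NODAL co-receptor and genes of nucleoside use. Of all genes lower with dTAG13, 60.7% were also lower in DMSO. A fall given without DMSO values is therefore not shown to be particular to dTAG13. Zcchc12, a coactivator of SMAD and CREB factors, was at 1473, 1635 and 1831 at 24 h and at 59.9, 30.8 and 35.8 at 48 h. It fell by 5.31 ± 0.26 (limma, adjusted p = 4.63e-11). In DMSO it went from 358, 392 and 401 to 118, 40.9 and 64.7, so the 24 h level was far higher with dTAG13 while the 48 h levels overlapped, and the step was deeper by −2.83 ± 0.21 (limma, adjusted p = 5.19e-06). Vstm2b, an immunoglobulin-domain membrane protein, followed the same pattern, from 682, 966 and 810 to 2.71, 5.06 and 8.33 (−7.10 ± 0.49, limma adjusted p = 2.92e-09; difference −3.10 ± 0.50, adjusted p = 0.00112). C1ql2, a secreted synaptic protein, was at 479, 326 and 470 and then at 4, 0 and 1.54. It fell by 7.49 ± 0.79 (limma, adjusted p = 5.69e-07), while in DMSO it was at 46.2 to 102 and then at 5.82 to 53.9.

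Cfc1, the NODAL co-receptor Cryptic, fell with dTAG13 from 2496, 2715 and 2967 to 27.8, 103 and 97.2 (−5.36 ± 0.49, limma adjusted p = 1.22e-07). Upp1, a uridine phosphorylase, went from 2569 to 3229 down to 43.7 to 118, and its fall exceeded that in DMSO (difference −2.33 ± 0.41, limma adjusted p = 0.00332; 0.0885 without the line 7H). Slc28a2, a nucleoside transporter, went from 278 to 364 down to at most 5.64. Nxph4 (a ligand of neurexins), Astn2 (an astrotactin of neuronal migration), Cacna2d2 (a calcium channel subunit), Kcne1 (a potassium channel subunit) and St8sia1 (a ganglioside sialyltransferase) also fell, by 4.99 to 6.01 on the log2 scale (limma, adjusted p 0.000314 or less). The groups of each of these genes did not overlap.

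Epithelial genes rose together and most mesenchymal genes fell. Of 28 junction and keratin genes tested, 21 were called higher, 0 lower and 7 neither, with a median change of 1.33, against a median of 0 over all genes and 19.9% called higher. In DMSO 20 of the 28 were higher. Cdh1, the cadherin of epithelial adherens junctions (chromosome 8, 106603351 to 106670246), was at 6862, 6437 and 6622 at 24 h and at 42665, 40009 and 41271 at 48 h. In DMSO it was at 16954, 18784 and 19110 and then at 43705, 44893 and 41456. The 24 h cells with dTAG13 thus held far less Cdh1 than DMSO cells and the 48 h cells about as much, and the step of 2.64 ± 0.08 (limma, adjusted p = 6.65e-14) exceeded the DMSO step by 1.39 ± 0.09 (adjusted p = 3.54e-06).

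Among tight junction genes, Cldn4 rose from 317, 185 and 214 to 11075, 9892 and 13850 (5.62 ± 0.63, limma adjusted p = 3.33e-06). Ocln, which encodes occludin, rose from 93, 148 and 130 to 976, 1021 and 1394 (3.19 ± 0.34, limma adjusted p = 5.73e-07). Cgn, a cytoplasmic junction protein, rose from 638 to 796 up to 4143 to 4525, and Cldn7 from 815 to 943 up to 3828 to 4663. The steps of Cgn and Cldn7 exceeded those in DMSO by 1.37 ± 0.20 and 1.35 ± 0.11 (limma, adjusted p = 0.000631 and 1.31e-05). The regulators of epithelial genes moved with them. Grhl2, a grainyhead factor that activates Cdh1, rose from 232, 353 and 243 to 1372, 1089 and 1719, and Esrp2, an epithelial splicing regulator, rose from 338 to 390 up to 1658 to 1872. Grhl3 rose with dTAG13 from 229, 326 and 266 to 755, 577 and 747. In DMSO it was at 994 to 1028 and then at 670 to 800, a step of −0.50 ± 0.21 that was not called (adjusted p = 0.0675), and the difference was 1.84 ± 0.28 (limma, adjusted p = 0.000779). For Grhl2 the difference was 1.12 ± 0.23 (limma, adjusted p = 0.0048; 0.0511 without the line 7H and 0.0921 without 7H2). Jup, a plakoglobin of desmosomes and adherens junctions, rose by 1.85 ± 0.17 with dTAG13 and 1.74 ± 0.17 in DMSO, and its difference of 0.11 ± 0.13 was not called (limma, adjusted p = 0.653).

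Of 18 mesenchymal genes, 13 were called lower, 3 higher and 2 neither with dTAG13, and 3 lower, 3 higher and 12 neither in DMSO. The medians of the 18 were −1.38 and 0.16. Among all tested genes, 19.9% were higher and 19.4% lower with dTAG13, and 20.8% and 19.6% in DMSO. Vim, the intermediate filament of mesenchyme, went from 9304, 8051 and 7758 to 4212, 1967 and 3337 (−1.46 ± 0.30, limma adjusted p = 0.000963). In DMSO it was at 5564 to 7149 and then at 3968 to 13610, with overlapping groups. Zeb1, a repressor of Cdh1, was at 427, 333 and 285 and then at 199, 26.6 and 46.1 (−2.43 ± 0.39, limma adjusted p = 6.66e-05), and Snai1, a repressor of the same kind, was at 399 to 455 and then at 93.2 to 152. Pdgfra, a growth factor receptor of mesoderm, went from 5512, 6918 and 6126 to 535, 235 and 129 (−4.60 ± 0.41, limma adjusted p = 1.16e-07). Col3a1, a fibrillar collagen, fell by 2.52 ± 0.52 (limma, adjusted p = 0.00104; 0.0521 without the line 7H2).

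Other members went against the list's name or differed in the opposite sense. Fn1, a fibronectin that endoderm also makes, rose from 18515, 13643 and 12148 to 47214, 34316 and 87497 (1.84 ± 0.29, limma adjusted p = 8.2e-05). Cdh2, the cadherin of mesenchyme and neural tissue, was at 16370, 16815 and 15475 and then at 7624, 9800 and 6688 with dTAG13, against 8880 to 10376 and then 821 to 2246 in DMSO. It fell in both, and the dTAG13 fall was shallower by 2.02 ± 0.34 (limma, adjusted p = 0.00285). Without the line 7H2 neither the dTAG13 fall of Cdh2 (adjusted p = 0.0967) nor its difference (0.0982) was called. The difference of the steps was called lower in 10 of the 18 mesenchymal genes, against 7.4% of all genes. It was called lower in 4 without the line 7H1, in 5 without 7H, and in 1 without pairing by line. Vim was among those lost without pairing (difference −1.60 ± 0.23, limma adjusted p = 0.000727, and 0.0608 without pairing). Without the line 7H or 7H2, 8 or 7 of the 18 were called lower in the dTAG13 step. The summed streak markers given above fell over the same step, and their part in these counts was not tested.

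**Figure D2:**
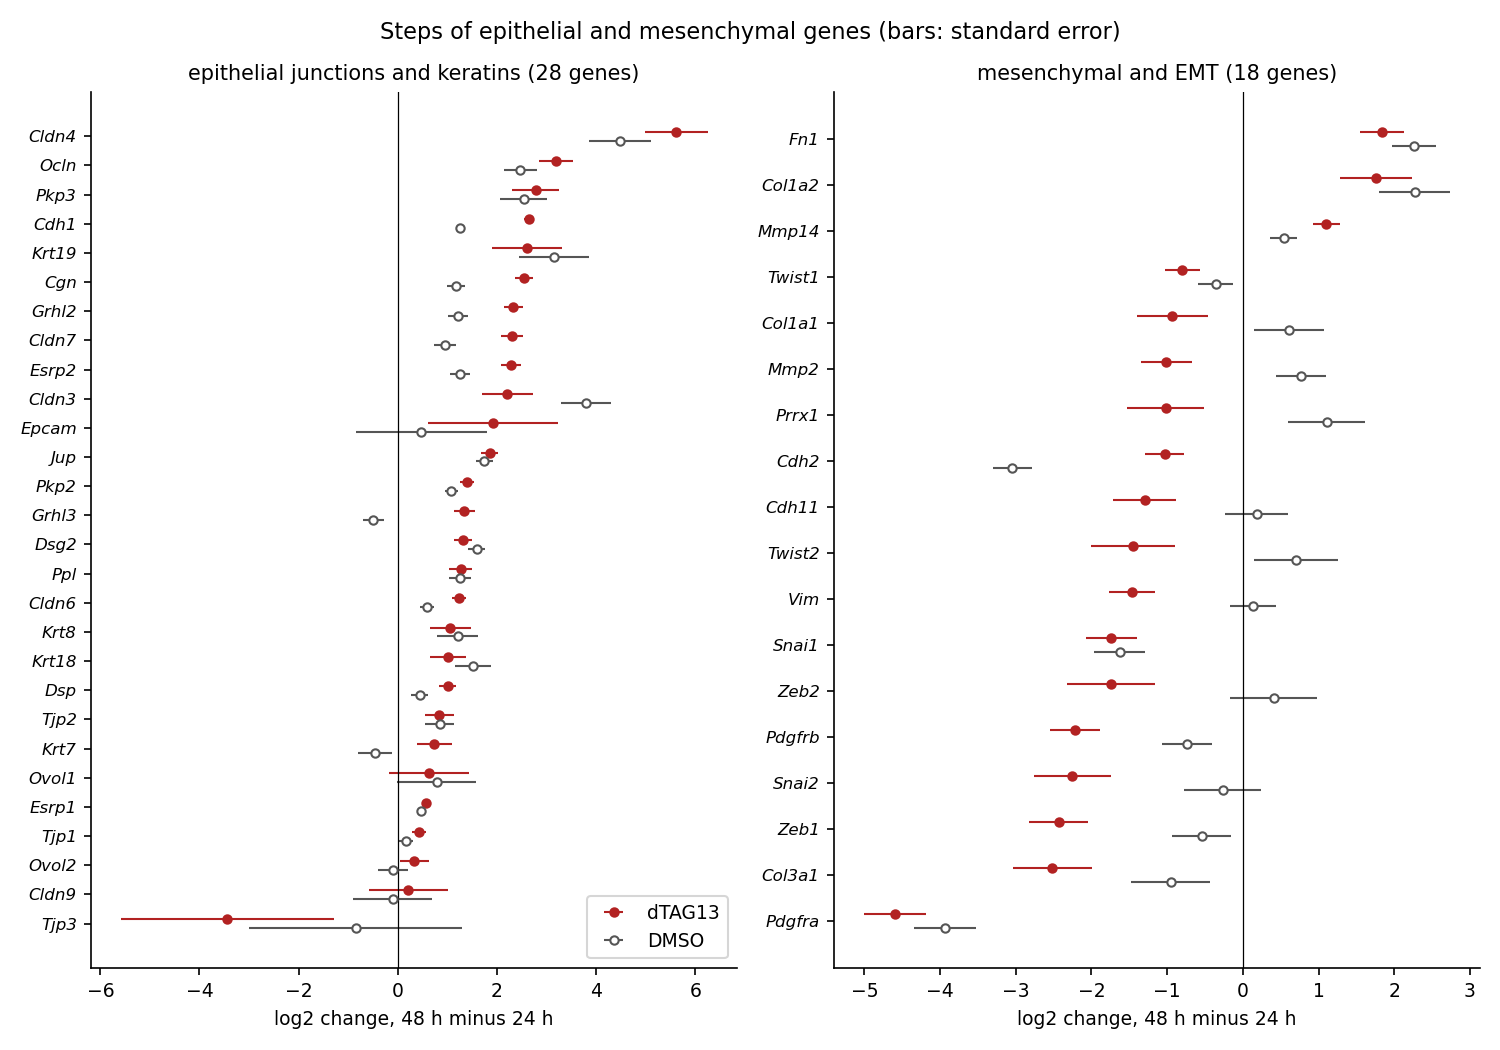
Log2 change from 24 h to 48 h with dTAG13 (filled red) and DMSO (open grey) for 28 epithelial and 18 mesenchymal genes, ordered by the dTAG13 change, with standard errors from the fit. Of the epithelial genes 21 were called higher with dTAG13 and 20 with DMSO, while 13 mesenchymal genes were called lower with dTAG13 and 3 with DMSO.

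Most primitive streak genes fell. Of 20 tested, 15 were called lower and 0 higher with dTAG13, and 11 lower and 0 higher in DMSO, where 19.4% and 19.6% of all genes were called lower. Mixl1, a homeobox gene of the streak, went from 8837, 8001 and 7874 to 440, 476 and 217, which is 21.8-fold lower by the means (−4.52 ± 0.52, limma adjusted p = 4.19e-06). Eomes, the T-box factor that starts endoderm formation, was at 12745, 12643 and 11347 and then at 6033, 4957 and 2936 (−1.46 ± 0.40, limma adjusted p = 0.00761; 0.167 without the line 7H2). Evx1 fell from 168 to 320 down to 3.95 to 24.9, and Mesp1, a mesoderm gene, from 18 to 27.4 down to a listed 0 in every line. T, the T-box factor brachyury and a streak marker summed above, was at 2672, 1567 and 1590 and then at 1558, 237 and 1575. Its groups overlapped and its step was not called (limma, adjusted p = 0.188). Fgf8, an FGF ligand, fell from 11622 to 12809 down to 2084 to 4425 (limma, adjusted p = 0.00332; 0.141 without the line 7H2).

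Of the 20 streak genes, 1 had a called difference of steps upward and 4 downward, against 7.62% and 7.4% of all genes. Gsc, a homeobox gene of the anterior streak and prechordal plate, was among the 4. It was at 6777, 7010 and 7234 and then at 1541, 1601 and 751 with dTAG13, against 13029, 14517 and 14344 and then 8632, 10939 and 7320 in DMSO. With dTAG13 it fell by 2.51 ± 0.30 (limma, adjusted p = 2.88e-06), while the DMSO step of −0.66 ± 0.30 was not called (adjusted p = 0.0853). The difference was −1.85 ± 0.21 (limma, adjusted p = 9.8e-05). Markers of blood and endothelium were mixed. Of 13 tested, 5 were lower, 2 higher and 6 not called with dTAG13, and 4 were lower and 2 higher in DMSO, against 19.4% of all genes lower and 19.9% higher with dTAG13. Gata1, an erythroid factor, went from 1293, 1283 and 1405 to 83.1, 337 and 120, Kdr, a VEGF receptor, from 403 to 644 down to 8.37 to 37.1, and Lmo2, a blood cofactor, from 403 to 437 down to 12.5 to 48.6 (limma, adjusted p 2.06e-05 or less). Runx1, a factor of blood formation, rose from 1050 to 1078 up to 4608 to 5574 (limma, adjusted p = 8.16e-09), and Pecam1, an endothelial adhesion protein, was low and went from 3.03 to 17.1 up to 22.4 to 48 (limma, adjusted p = 0.0485). The Pecam1 call was missed in 9 of 13 other settings, with any 1 line left out among them (adjusted p 0.0527 to 0.58). Of 14 cardiac and smooth muscle genes, 8 rose and 1 fell, with a median of 2.31, and DMSO gave the same counts of 8 and 1. Tagln, an actin-binding protein of smooth muscle, rose from 42 to 78.2 up to 2612 to 4374, and Myl9, a myosin light chain, from 15.2 to 27.7 up to 299 to 474. No member of this list had a called difference of steps, and 3 of its members had an unadjusted p under 0.05 for it (limma). Other settings did call some, 2 lower among the 12 endoderm libraries alone, 2 lower with 5 added in place of 1, and 1 higher without the line 7H1.

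Core endoderm regulators moved in both directions. Of 22 definitive endoderm genes tested, 6 were higher, 3 lower and 13 not called with dTAG13, against 10 higher and 3 lower in DMSO. The median changes were 0.98 and 0.70, against 0 and 0.02 over all genes, of which 19.9% were higher and 19.4% lower with dTAG13. The difference of the steps was called higher in 3 of the 22 and lower in 5, against 7.62% and 7.4% of all genes. Without pairing by line, 1 and 2 were called. Among the 12 endoderm libraries alone 9 were higher and 5 lower with dTAG13, and without the line 7H2 these were 2 and 0. Sox17, the HMG factor of early endoderm, was at 2324, 3237 and 3716 and then at 554, 1906 and 1265. It fell by 1.46 ± 0.42 (limma, adjusted p = 0.01; 0.0888 without the line 7H2), and in DMSO it also fell, from 10534 to 12424 down to 3872 to 7351. Cxcr4, a chemokine receptor of migrating endoderm, went from 4086, 4340 and 5062 to 2234, 2557 and 1874 (limma, adjusted p = 0.0271). That call was missed when any 1 line was left out (adjusted p 0.0648 to 0.0751). Foxa2, a forkhead pioneer factor, was at 8024, 7510 and 8188 and then at 2830, 3813 and 3929. Its groups did not overlap. The step of −1.18 ± 0.60 was not called when all stages shared the spread (limma, adjusted p = 0.137). It was called among the 12 endoderm libraries alone (limma, adjusted p = 3.05e-05). In DMSO Foxa2 was at 4157 to 4556 and then at 2690 to 3463. The difference of its steps was −0.64 ± 0.16 (limma, adjusted p = 0.0175). Foxa1 rose with dTAG13 from 1026, 1186 and 1166 to 1787, 2039 and 2868 (limma, adjusted p = 0.00216, and 0.0823 without the line 7H2). Gata6 and Hhex, endoderm and anterior endoderm factors, were at 5946 to 6499 and then 4273 to 6029, and at 3142 to 4224 and then 2088 to 3634, with overlapping groups and no call.

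Gata4 also differed between treatments. It was at 3538, 4010 and 4059 and then at 2188, 3465 and 1544 with dTAG13, a step that was not called (limma, adjusted p = 0.11). In DMSO it rose from 2664, 3306 and 3655 to 6343, 10412 and 8602, and the difference was −2.15 ± 0.38 (limma, adjusted p = 0.00285). Among 19 anterior endoderm genes, 4 were higher and 3 lower with dTAG13, close to the 19.9% and 19.4% of all genes. Cer1, a secreted inhibitor of NODAL, BMP and WNT, stayed among the most abundant, at 43800 to 65158 and then 59107 to 76401 (not called, limma adjusted p = 0.602). Shisa2, which holds immature WNT and FGF receptors in the cell, was at 1593 to 2026 and then 1484 to 1561, against 8128 to 14097 in the DMSO libraries of both times. Dkk1, a WNT antagonist, was at 676, 1101 and 1200 and then at 286, 1204 and 982 with dTAG13, while in DMSO it rose from 2648 to 3961 up to 9362 to 11976. The difference for Dkk1, −2.13 ± 0.64, missed the threshold (limma, adjusted p = 0.0518). Prox1, a homeobox gene of liver and pancreas buds, was at 512 to 709 and then 355 to 588, and rose in DMSO from 189 to 241 up to 414 to 876 (difference −1.74 ± 0.32, limma adjusted p = 0.00263; 0.0639 without the line 7H1).

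Endocrine genes split. Of 11 peptide and endocrine genes tested, 5 rose and 1 fell with dTAG13, against 9 and 0 in DMSO. Over all genes 19.9% were higher and 19.4% lower with dTAG13, and 20.8% and 19.6% in DMSO. The difference of the steps was called higher in 1 of the 11 and lower in 2, against 7.62% and 7.4% of all genes. Sst and Rfx6, above, rose with both treatments. Pyy, a gut hormone and an early endoderm marker, was at 0.825, 13.5 and 4.37 and then at 0.847, 4.74 and 13.9 with dTAG13, while in DMSO it went from 0.933, 0 and 0 to 99.3, 401 and 243. The difference was −7.38 ± 1.21 (limma, adjusted p = 0.00129). Insm1, a zinc finger factor of endocrine and neuronal precursors, moved the other way, from 106, 126 and 142 to 565, 846 and 714 with dTAG13, against 37 to 53.7 and then 32.7 to 78.8 in DMSO. The difference for Insm1 was 2.54 ± 0.45 (limma, adjusted p = 0.00215; 0.0598 without the line 7H1). Chga, a granin of secretory granules, rose from 1316, 1501 and 1866 to 4792, 4465 and 2036 (limma, adjusted p = 0.00241; 0.0763 without the line 7H and 0.0827 without 7H1).

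Signalling genes moved in both directions within each pathway. With 19.9% of all genes higher and 19.4% lower, most of the counts that follow lie near those of any list of the same size, and the values are those of single genes. Of 20 NODAL pathway genes, 6 were higher and 5 lower with dTAG13. Lefty2, a NODAL inhibitor and target, rose from 15788, 14516 and 18472 to 47408, 41151 and 33772 (1.32 ± 0.26, limma adjusted p = 0.000581). Of 17 WNT target genes, 2 were higher and 5 lower. Axin2, the general feedback target of WNT, fell from 806, 770 and 715 to 84.9, 136 and 101 (−2.85 ± 0.29, limma adjusted p = 4.12e-07), and Sp5 fell from 446 to 481 down to 39 to 90.1. Of 23 WNT ligands and receptors, 7 were higher and 5 lower. Wnt4, a ligand, rose from 67.9, 103 and 87.7 to 2332, 1499 and 1607 with dTAG13, and in DMSO from 23.1 to 42.7 up to 123 to 309. Its difference was 1.82 ± 0.40 (limma, adjusted p = 0.0075; 0.097 without the line 7H1).

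Of 23 FGF pathway genes, 7 were higher and 10 lower, and 6 were lower without the line 7H2. The 10 included the feedback inhibitor Spry4, at 3183 to 3383 and then 571 to 943 (−2.20 ± 0.15, limma adjusted p = 3.24e-09). Of 23 BMP pathway genes, 7 were higher and 7 lower. Nog, the BMP antagonist noggin, rose from 46.4, 47.8 and 53.1 to 491, 342 and 510 (3.14 ± 0.37, limma adjusted p = 2.41e-06). Msx1, a homeobox target of BMP, fell from 181, 119 and 126 to 5.99, 7.51 and 7.7, while in DMSO it was at 10.1 to 36.9 and then 14.1 to 17.7, and the difference was −3.86 ± 0.49 (limma, adjusted p = 0.000235). Of 16 retinoic acid genes, 3 were higher and 6 lower. Rdh10, which makes retinal, the precursor of retinoic acid, rose from 259, 230 and 232 to 2703, 1895 and 2156, and by more than in DMSO (difference 1.69 ± 0.30, limma adjusted p = 0.00219; 0.0537 without the line 7H2).

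Cyp26a1, the enzyme that degrades retinoic acid, went in opposite directions with the 2 treatments. It was at 7511, 11179 and 9265 and then at 17569, 15859 and 13429 with dTAG13, and at 7867, 12511 and 10945 and then at 6415, 5429 and 3429 in DMSO. The dTAG13 rise of 0.76 ± 0.26 (limma, adjusted p = 0.0304) was not called without the line 7H (0.0823) or 7H1 (0.12), while the difference of 1.81 ± 0.17 (adjusted p = 2.21e-05) was called in every setting run. Gas1, a hedgehog co-receptor, did the reverse, from 1332, 1043 and 866 to 391, 357 and 165 with dTAG13 and from 741, 708 and 661 to 1304, 2627 and 2063 in DMSO (difference −3.35 ± 0.35, limma adjusted p = 8.97e-05). Nrp2, a receptor of semaphorins and VEGF, rose far less with dTAG13, from 180, 293 and 242 to 432, 429 and 863, than in DMSO, where it reached 5649, 8886 and 9104. Its difference was −4.06 ± 0.28 (limma, adjusted p = 3.54e-06), and its dTAG13 rise (adjusted p = 0.00398) was not called without the line 7H2 (0.106).

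Ribosomal, respiratory and cholesterol synthesis genes fell with both treatments. All 23 ribosomal protein genes tested were lower with dTAG13 and all 23 in DMSO, against 19.4% and 19.6% of all genes. Their median changes were −0.60 and −0.58. Without the line 7H2, 16 were called lower with dTAG13. Rps14, as an example, was at 33458, 41199 and 39477 and then at 17419, 21298 and 19701. Of 23 respiratory chain genes, 19 were lower with dTAG13 and 15 in DMSO, among them Atp5a1, a subunit of ATP synthase, at 26619 to 27805 and then 16163 to 17778. Without the line 7H2 the respiratory count with dTAG13 was 12. Of 21 cholesterol synthesis genes, 12 were lower and 1 higher with dTAG13 and 16 lower in DMSO, for example Mvd, at 4104 to 4665 and then 1603 to 2043. No ribosomal or respiratory gene had a called difference of steps by limma, and 1 and 0 of them had an unadjusted p under 0.05. Quantile normalisation called the difference lower in 3 ribosomal protein genes. Normalised counts are relative, so a fall of these abundant genes together is a fall of their share.

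Of 16 cell cycle inhibitors and p53 targets, 8 were higher, 2 lower and 6 not called with dTAG13, against 19.9% of all genes higher, and 9 were higher and 1 lower in DMSO. Cdkn2b went from 410, 339 and 357 to 3682, 5178 and 7596 (3.83 ± 0.34, limma adjusted p = 1.02e-07), Cdkn2a from 209 to 330 up to 1265 to 2608, and Cdkn1a from 1352 to 1643 up to 4183 to 5855. These genes encode inhibitors that hold back cyclin-dependent kinases. Of 20 G2/M genes, 6 were lower and 0 higher with dTAG13, against 19.4% of all genes lower, and 7 were lower in DMSO. Of 18 immediate early genes, 12 were higher and 0 lower with dTAG13, and 15 were higher in DMSO. Of 22 glycolysis and hypoxia genes, 7 were higher and 1 lower with dTAG13, against 5 and 6 in DMSO. The dTAG13 count of higher members was 11 without the line 7H and 4 without 7H2, and the list's median turned from 0.22 to −0.18 without 7H1. The difference was called higher in 10 and lower in 3, against 7.62% and 7.4% of all genes, in 2 and 1 without pairing by line, and in 6 and 3 without 7H. Hk2, a hexokinase, rose from 2738, 2206 and 2612 to 6736, 7052 and 5691, and in DMSO was at 4092 to 5240 and then at 3331 to 6222 (difference 1.27 ± 0.20, limma adjusted p = 0.000991). Slc2a1, a glucose transporter, rose with both, from 1864 to 2696 up to 5387 to 12149 with dTAG13 and from 8713 to 11248 up to 21583 to 39645 in DMSO. Of 19 unfolded protein and stress genes, 3 rose and 3 fell with dTAG13 and 1 rose and 8 fell in DMSO, the difference being higher in 9, but in 0 without pairing by line, in 1 without the line 7H1 and in 5 without either of the other lines.

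**Figure D3:**
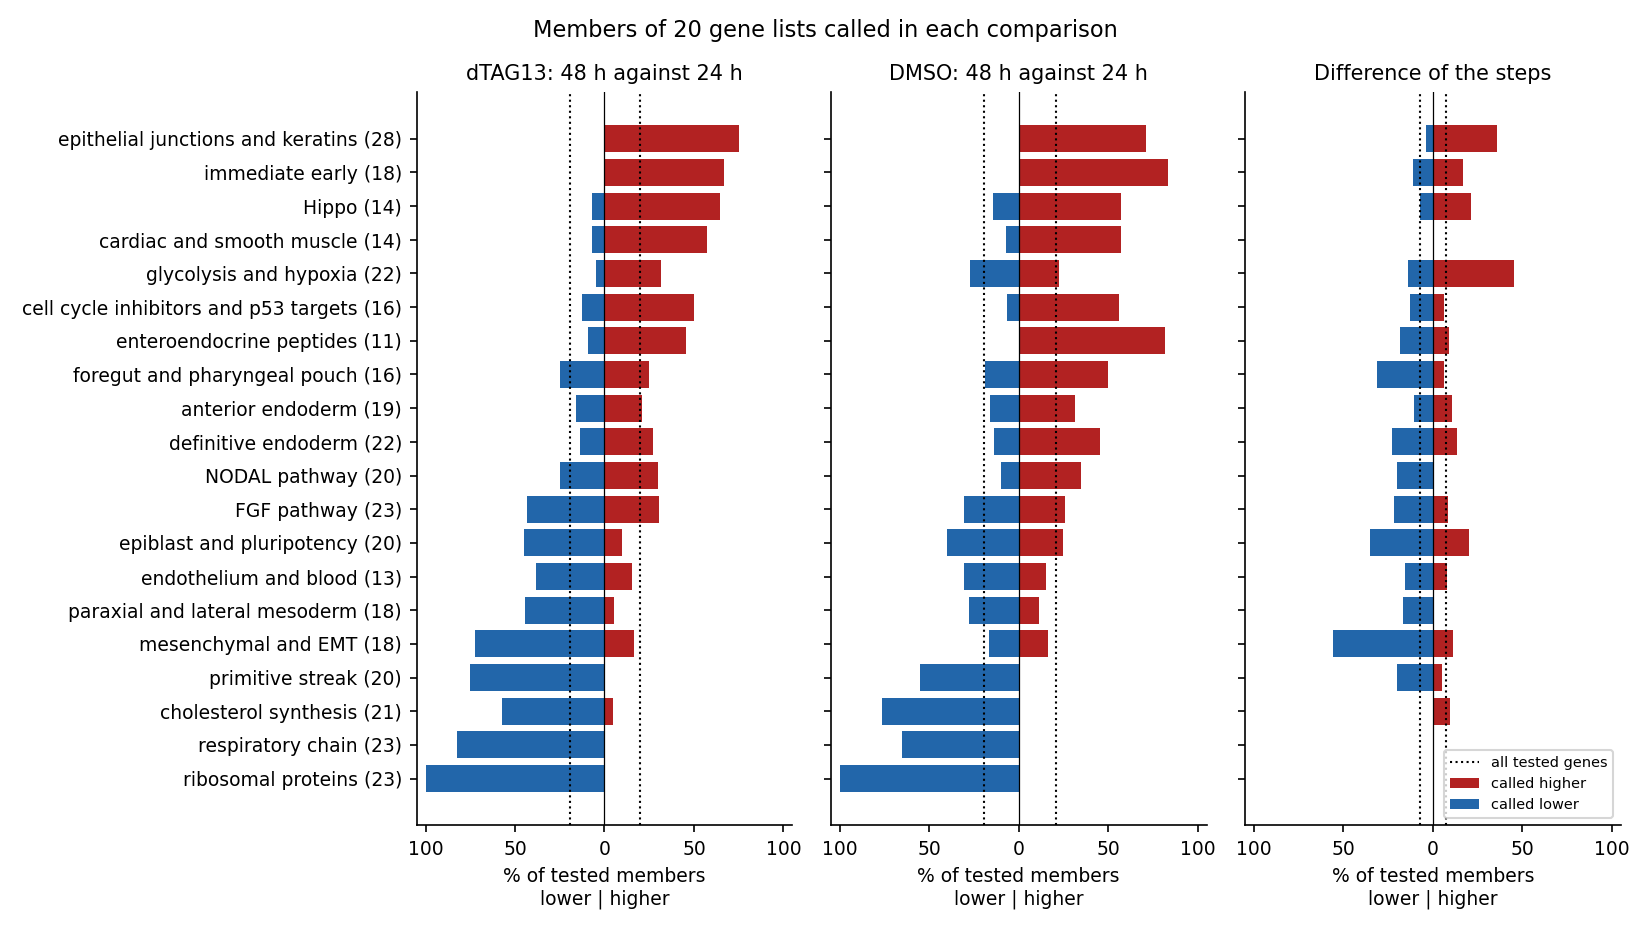
Share of tested members called higher (red, right) or lower (blue, left) in 20 of the 41 gene lists, for the dTAG13 step, the DMSO step and their difference; dotted lines mark the shares over all tested genes and the numbers in brackets are the members tested. Ribosomal, respiratory, cholesterol and streak lists lie to the left with both treatments, and the mesenchymal list has 13 of 18 members there with dTAG13 and 3 with DMSO.

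The 12 largest positive differences between the steps were those of Hnf4a, Efhd1 and 10 other genes, of which all but Adamts18 were called higher in the dTAG13 step. Ahr, the aryl hydrocarbon receptor, a ligand-activated transcription factor (chromosome 12, 35497974 to 35535038), was at 80.1, 74.4 and 82.4 and then at 1167, 1535 and 1556 with dTAG13. In DMSO it was at 115, 182 and 208 and then at 223, 210 and 462. The 48 h values with dTAG13 lay above all others, and the difference was 3.37 ± 0.32 (limma, adjusted p = 2.42e-05). Cyp1b1, a cytochrome P450 that AHR is known to induce, was at 121, 226 and 133 and then at 1756, 1825 and 1083 with dTAG13, and at 57 to 206 in DMSO at both times. Its difference was 3.13 ± 0.44 (limma, adjusted p = 0.000471). The AHR core motif, GCGTG, was searched in its promoter after these values were seen, and the bases before the start are shown because Ahr and Cyp1b1 rose together. The sequence is of the minus strand, RefSeq GRCm38.p6, 5′ to 3′, and capitals mark the reverse complement of GCGTG.
Cyp1b1, chr17:79715062-79715311: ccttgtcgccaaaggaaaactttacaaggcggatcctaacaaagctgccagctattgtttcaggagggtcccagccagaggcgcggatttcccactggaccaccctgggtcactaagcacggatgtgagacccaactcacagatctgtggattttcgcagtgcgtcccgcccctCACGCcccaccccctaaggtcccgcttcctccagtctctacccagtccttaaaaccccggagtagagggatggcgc
The motif is common, being held by 42.7% of the promoters of all tested genes.

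Gstm1, a glutathione transferase, rose from 570, 546 and 492 to 1705, 2495 and 1041 with dTAG13 and fell in DMSO from 702, 608 and 566 to 254, 263 and 232. Its groups did not overlap with either treatment, and the difference was 2.93 ± 0.23 (limma, adjusted p = 9.82e-06). Ism2, a secreted isthmin, and Gpr155, a lysosomal cholesterol sensor, also rose with dTAG13 and fell in DMSO. Ism2 was at 3.92 to 31.9 and then 76.4 to 112 with dTAG13 and at 241 to 256 and then 53.1 to 75.5 in DMSO (difference 4.71 ± 0.66, limma adjusted p = 0.00044). Gpr155 was at 98.3, 174 and 192 and then at 1223, 671 and 250 with dTAG13 (difference 3.51 ± 0.55, limma adjusted p = 0.000967). Tmem154, a membrane protein, rose from 4.84 to 9.8 up to 106 to 196 with dTAG13, and its DMSO values were already 135 to 158 at 24 h (difference 3.41 ± 0.43, limma adjusted p = 0.000206).

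The pattern of a low 24 h value with dTAG13 was shared by Alx1, a homeobox factor of craniofacial mesenchyme, at 10.9, 9.38 and 4.13 against 238, 385 and 380 in DMSO. At 48 h Alx1 was at 275, 234 and 803 and at 320, 841 and 517, and the difference was 4.78 ± 1.0 (limma, adjusted p = 0.00564; 0.055 without the line 7H). Hnf4a, above, was at 27.4, 57.4 and 113 in DMSO at 24 h and at 41.7, 211 and 58.9 at 48 h, a difference of 6.16 ± 1.29 (limma, adjusted p = 0.00585; 0.0922 without the line 7H1 and 0.111 without 7H2). Pdyn, the precursor of dynorphin peptides, rose from 16.5, 28.7 and 31.4 to 665, 1433 and 657. Its difference of 3.38 ± 0.88 (limma, adjusted p = 0.0193) was not called without pairing (0.055), without the line 7H (0.121) or without 7H2 (0.0994). Cadps, a protein of vesicle release, had a difference of 3.16 ± 0.66 (limma, adjusted p = 0.00553; 0.0844 without the line 7H1 and 0.0603 without 7H2), and its dTAG13 rise was not called without 7H2 (0.079). Adamts18, a metalloprotease, was at 657 to 769 and then 119 to 346 with dTAG13 and at 88.3 to 163 and then 0 to 39.8 in DMSO. Its difference of 3.35 ± 0.96 (limma, adjusted p = 0.0316) was missed without pairing (0.133), among the 12 endoderm libraries alone (0.11), and without the line 7H1 (0.215) or 7H2 (0.244).

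Most of the large negative differences given here were of genes that rose in DMSO and had no called step with dTAG13 or a fall. Wscd1, a sulfotransferase-like membrane protein (chromosome 11, 71749920 to 71789647), was at 25.3, 22.7 and 22.6 and then at 23.5, 14.3 and 34.5 with dTAG13. In DMSO it rose from 84.3, 110 and 147 to 2687, 2872 and 2719. The DMSO values at 48 h stood apart from all other libraries, and the difference was −4.67 ± 0.46 (limma, adjusted p = 3.24e-05). The Wscd1 promoter that held TAATCC is shown for its 250 bases before the most upstream start, RefSeq GRCm38.p6, plus strand, 5′ to 3′, with the motif in capitals; it lies on the strand of the gene, and 2 further starts listed for Wscd1 had none.
Wscd1, chr11:71750435-71750684: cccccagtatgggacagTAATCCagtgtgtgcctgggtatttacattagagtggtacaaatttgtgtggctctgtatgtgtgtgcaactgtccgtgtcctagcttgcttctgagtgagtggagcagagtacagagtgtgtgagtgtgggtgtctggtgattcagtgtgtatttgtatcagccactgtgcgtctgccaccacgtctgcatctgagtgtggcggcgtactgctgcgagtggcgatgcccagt
Ngfr, the low-affinity neurotrophin receptor, was at 21.7, 2.91 and 10.1 and then at 12, 7.47 and 11.5 with dTAG13, and rose in DMSO from 4.26 to 10.1 up to 281 to 492 (difference −5.30 ± 0.52, limma adjusted p = 3.06e-05).

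Angpt2, a ligand of the TIE2 receptor of vessels, was at 322, 341 and 444 and then at 234, 287 and 97.7 with dTAG13, and rose in DMSO from 280, 433 and 383 to 3031, 6620 and 6341 (difference −4.76 ± 0.82, limma adjusted p = 0.00268). Tmem178, a regulator of calcium release, rose with both treatments, to 110, 56.5 and 106 with dTAG13 and to 1903, 1672 and 1954 in DMSO (difference −4.73 ± 0.71, limma adjusted p = 0.000716). Best2, a bestrophin anion channel, was at 0 to 14 and then 0 to 52.3 with dTAG13, and in DMSO was listed at 0 at 24 h and at 240, 563 and 361 at 48 h. The difference for Best2 was −9.10 ± 1.52 (limma, adjusted p = 0.00142; 0.0557 without the line 7H). Tbx1, a T-box factor of pharyngeal endoderm, was at 0 to 21.6 in all dTAG13 libraries and rose in DMSO to 318, 495 and 353. The difference for Tbx1 of −5.47 ± 1.53 (limma, adjusted p = 0.0277) was not called without pairing (0.0776), among the 12 endoderm libraries alone (0.059) or with any 1 line left out (0.0553 to 0.136). Grin2c, a glutamate receptor subunit, was at 11.4 to 21.9 and then 0 to 10.3, and rose in DMSO to 378 to 1086 (difference −5.35 ± 1.0, limma adjusted p = 0.00295).

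Other genes, Rbm24 and Tlx1, fell with dTAG13 and rose in DMSO. Rbm24, an RNA-binding protein of heart and muscle, was at 120, 81.5 and 136 and then at 4.01, 0 and 26.1, and rose in DMSO from 326 to 399 up to 1160 to 1926 (difference −6.32 ± 1.02, limma adjusted p = 0.00179; 0.0652 without the line 7H). Tlx1, a homeobox factor of the spleen, was low with dTAG13, at 3.02 to 8.23 and then 0 to 1.7, and rose in DMSO from 31.8 to 65.5 up to 362 to 1152 (difference −6.02 ± 0.96, limma adjusted p = 0.00105). Its dTAG13 fall (adjusted p = 0.00864) was not called without the line 7H (0.133) or 7H2 (0.0538). Crtac1, a cartilage acidic protein, fell from 55.3 to 57.3 down to at most 4.01 with dTAG13 and in DMSO was at 84.5 to 135 and then 159 to 692 (difference −5.74 ± 1.06, limma adjusted p = 0.00271). C1ql2, above, had a difference of −5.76 ± 0.89 (limma, adjusted p = 0.00083).

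**Figure D4:**
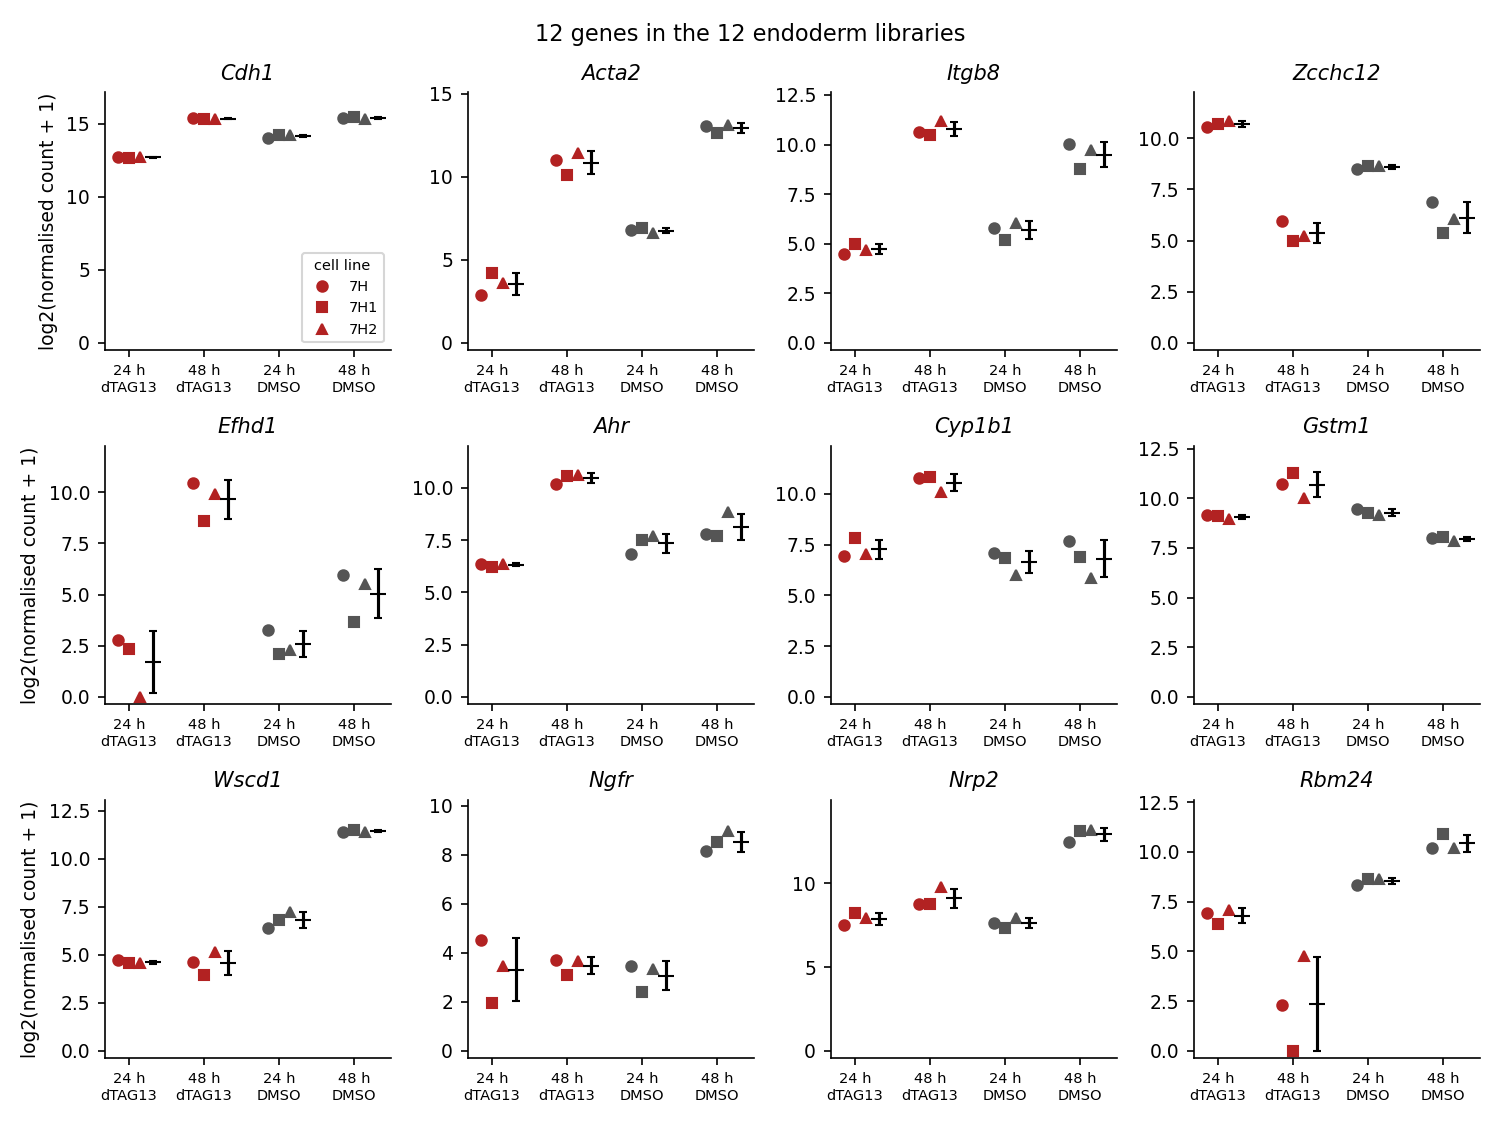
Log2(normalised count + 1) of 12 genes in the 12 endoderm libraries, by cell line (symbols), with the mean and SD of each group in black; red marks dTAG13 and grey DMSO. Cdh1, Acta2 and Itgb8 rise with both treatments, Ahr, Cyp1b1 and Efhd1 stand apart at 48 h with dTAG13, and Wscd1, Ngfr, Nrp2 and Rbm24 stand apart at 48 h with DMSO.

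Pluripotency and imprinted genes moved in both directions, and some pluripotency genes spread widely between lines at 48 h. Of 20 epiblast and pluripotency genes, 2 were higher and 9 lower with dTAG13, against 19.9% and 19.4% of all genes. In DMSO 5 of the 20 were higher and 8 lower. The difference of the steps was called higher in 4 and lower in 7, against 7.62% and 7.4% of all genes. Without pairing by line, these counts were 1 and 1. Sox3, a SOX factor of epiblast and neural cells, rose from 349, 380 and 383 to 3836, 4282 and 1720, and in DMSO from 457 to 602 up to 912 to 1452. The difference for Sox3 was 1.89 ± 0.38 (limma, adjusted p = 0.00596; 0.052 without the line 7H and 0.0608 without 7H1). Pou5f1, the factor OCT4, was at 1499, 786 and 806 and then at 889, 367 and 1874 with dTAG13, and at 2941, 749 and 5796 in DMSO at 48 h. The line 7H2 was the highest and 7H1 the lowest at 48 h with both treatments, and Sox2 had the same order, at 191, 117 and 952 with dTAG13 and 627, 183 and 1264 in DMSO. At 24 h the line 7H was instead the highest for both genes with both treatments, so this order did not hold across stages. Neither step of these genes with dTAG13 was called (limma, adjusted p = 0.775 and 0.569). Their differences were −1.27 ± 0.18 for Pou5f1 and −2.65 ± 0.25 for Sox2. They were called with pairing by line within stage (limma, adjusted p = 0.00044 and 2.69e-05) and not without it (0.425 and 0.104). With a line block common to all stages neither was called.

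Of 18 imprinted genes, 2 were higher and 3 lower with dTAG13, against 9 and 0 in DMSO. Over all genes 19.9% were higher and 19.4% lower with dTAG13, and 20.8% and 19.6% in DMSO. The difference of the steps was called higher in 1 of the 18 and lower in 4, against 7.62% and 7.4% of all genes. Without pairing by line, these counts were 1 and 2. Grb10, an adaptor that restrains insulin and IGF signalling, rose from 32399, 39704 and 41339 to 170764, 174470 and 137187, and in DMSO from 70418, 84076 and 83308 to 199523, 251570 and 162755. The dTAG13 step was 2.09 ± 0.16 (limma, adjusted p = 7.95e-09) and exceeded the DMSO step by 0.74 ± 0.09 (adjusted p = 0.000152; 0.0502 with a line block common to all stages). Peg10, a retrotransposon-derived placental gene, went down from 14931, 16000 and 12890 to 6421, 10424 and 9378 with dTAG13 and up from 3995, 3977 and 4048 to 7851, 9623 and 6612 in DMSO. The treatments were apart at 24 h and overlapped at 48 h, and the difference was −1.75 ± 0.20 (limma, adjusted p = 0.000147). Dlk1, a NOTCH-related ligand, fell from 52.4, 21.3 and 26.7 to 7.26, 4.39 and 11.4 with dTAG13 and rose in DMSO from 33.4 to 59.7 up to 142 to 277 (difference −4.16 ± 0.50, limma adjusted p = 0.000142).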

How the data were processed

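PolyA RNA of 24 libraries was sequenced, in 8 groups of stage and treatment with 3 libraries each, 1 per cell line. The authors deposited signal values, read counts normalised with DESeq2 (build mm10, no versions, per the submitters' processing notes), for 18205 genes. Aligner, counting tool and strand setting: not given in the sources used here. Reads of a gene and its antisense partner therefore cannot be separated. No column of values was left out. Low values, under 6 reads, were whole to within 0.1 in only 58.5 to 71.9% of cases per library, so no count model was used. Depth, estimated from the steps between low values, was 17.17 to 33.85 M reads. Gene IDs numbering 18116 matched GENCODE M21 (GRCm38).

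The scale was log2(value + 1). Linear models were fitted with limma 3.58.1 under R 4.3.3 (statmod 1.5.0), using trended, robust variance shrinkage. A gene was tested if 3 or more libraries reached 10, which left 15037, two-sided, with Benjamini-Hochberg adjustment over all of them and calls at an adjusted p under 0.05. The fits held all 24 libraries. The steps had cell line as a block common to all groups (14 residual degrees of freedom), because the comparison is defined as paired by line. The difference of the steps had line within stage as the block (8 residual degrees of freedom), so its standard error can be smaller than that of a step. Same-numbered samples come from the same line. After subtracting group means, they correlated at −0.0222 to 0.028 between the 2 dTAG13 groups and at 0.0703 to 0.187 between treatments at 1 stage. The fits were also run on simulated data with known changes. The simulated noise was independent between libraries and held no effect of line, so the pairing by line could not be checked.

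The 41 gene lists are described by counts and medians beside all genes tested, with no test of a list. Named genes were Otx2, Otx1, the 12 largest rises and falls in the dTAG13 step and the 12 largest positive and negative differences, taken from called genes whose mean reached 100, whose sign was the same in the 3 lines and whose symbol was not that of a predicted gene, and members of the lists with the smallest p (4 per list in the step, 2 in the difference) or taken as examples, some of them after their values were seen. Some were left out for space after their values were seen. One gene that met the rule is not reported here. The comparison, lists and rules were chosen with earlier results of these data known. Promoters are the 250 bases before RefSeq starts, matched by symbol for 11252 of 15021 tested genes with a unique symbol. Python 3.11.15 with pandas 2.3.3, SciPy 1.17.1 and matplotlib 3.10.9 served for tables and plots.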

Additional observations from a re-analysis of the deposited data

Results flagged for a closer look

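For the named genes below, the dTAG13 step from 24 h to 48 h differed from the DMSO step by the direct test of the difference (limma, Benjamini-Hochberg adjusted p under 0.05, 3 lines a group). Groups of 3 are too small for a search for single outlying samples. The values are log2 differences, the dTAG13 step minus the DMSO step, and the groups behind them are described in the results.

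Positive differences were found for Hnf4a (6.16), Efhd1 (5.47), Alx1 (4.78), Ism2 (4.71), Gpr155 (3.51), Tmem154 (3.41), Pdyn (3.38), Ahr (3.37), Adamts18 (3.35), Cadps (3.16), Cyp1b1 (3.13) and Gstm1 (2.93), the largest by the rule used. Among the list genes and the large step changes they were found for Insm1 (2.54), Itgb8 (2.21), Cdh2 (2.02), Sox3 (1.89), Grhl3 (1.84), Wnt4 (1.82), Cyp26a1 (1.81), Rdh10 (1.69), Cdh1 (1.39), Cgn (1.37), Cldn7 (1.35), Hk2 (1.27), Grhl2 (1.12) and Grb10 (0.74).

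Negative differences were found for Best2 (−9.10), Rbm24 (−6.32), Tlx1 (−6.02), C1ql2 (−5.76), Crtac1 (−5.74), Tbx1 (−5.47), Grin2c (−5.35), Ngfr (−5.30), Angpt2 (−4.76), Tmem178 (−4.73) and Wscd1 (−4.67), all among the largest by the rule used. They were also found for Pyy (−7.38), Dlk1 (−4.16), Nrp2 (−4.06), Msx1 (−3.86), Gas1 (−3.35), Vstm2b (−3.10), Zcchc12 (−2.83), Sox2 (−2.65), Upp1 (−2.33), Gata4 (−2.15), Gsc (−1.85), Peg10 (−1.75), Prox1 (−1.74), Vim (−1.60) and Pou5f1 (−1.27).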

How the results depend on the processing

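No named gene that was called changed sign under any alternative run, but the balance of higher and lower calls turned in some, as in the DMSO step with quantile normalisation (2660 higher and 3504 lower) and the difference with equal totals (835 and 1287). Leaving out 1 line gave 1924 to 2428 genes higher and 1710 to 2282 lower in the dTAG13 step, the smallest counts being those without the line 7H2, and 2098 to 2381 higher and 1807 to 2308 lower in the DMSO step. For the difference of the steps the same gave 443 to 607 higher and 514 to 585 lower. Without the replicate block, that is without pairing by line, the dTAG13 step called 2944 higher and 2867 lower. The difference then fell to 439 higher and 456 lower, and to 470 and 508 with a line block common to all stages. Members of the lists with a called difference fell from 92 to 27 higher and from 115 to 40 lower without the replicate block. With the looser motif TAATCN, the share of promoters was 13.7% over all tested genes, 10.6% for higher and 13.9% for lower differences. The cause of these changes was not tested. Fits with 1 line left out held fewer libraries. Fits of the difference without pairing, or with a common line block, took up less of the spread between lines. Equal totals and quantile normalisation kept all 24 libraries and the block.

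Of 94 named genes called in the dTAG13 step, 15 lost the call under some alternative and 0 without the replicate block. Of 52 named differences, 21 lost the call under some alternative, 6 without the block and 6 with a line block common to all stages. The difference of Foxa2 was not among the 52. Calls lost in other settings included the dTAG13 steps of Gpr155 (adjusted p = 0.056) and Chga (0.0582) with the 6 dTAG13 libraries alone, and with no trend the differences of Adamts18 (0.0643) and Tbx1 (0.0618). Equal totals gave 2717 higher and 3226 lower in the dTAG13 step, and quantile normalisation 2637 and 3265. Genes at a few reads at one time have fitted changes that depend on the added 1.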

Other observations

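Genes of ribosome biogenesis, a list of 38 assembled after their values were seen, are given as a description, since their choice fixes much of the count. With dTAG13, 9 were called higher and 6 lower from 24 h to 48 h, while in DMSO 0 were higher and 29 lower. The difference of the steps was called higher in 32 and lower in 0 (limma, Benjamini-Hochberg). It was called higher in 25 without pairing by line, and in 18 to 30 with 1 line left out. Ddx21, a nucleolar RNA helicase, rose from 6139, 5722 and 5813 to 9022, 8534 and 8243 with dTAG13 and fell from 7928, 7587 and 8053 to 6551, 4950 and 7220 in DMSO (difference 0.89 ± 0.13, limma adjusted p = 0.000631). Noc2l, a nucleolar factor, went from 4294, 4322 and 4313 to 5441, 5667 and 5113 with dTAG13 and from 6218, 5888 and 5887 to 4159, 4525 and 4386 in DMSO (difference 0.79 ± 0.09, limma adjusted p = 0.000141). Dkc1, the pseudouridine synthase dyskerin, fell with both, and less with dTAG13 (difference 0.85 ± 0.17, limma adjusted p = 0.00447). Rrn3, a factor of RNA polymerase I, had no called difference (limma, adjusted p = 0.0719).

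Beside Ahr and Cyp1b1, other genes of the AHR pathway did not share a direction. Of 10 tested, chosen after values were seen, the difference was higher in those 2 and lower in 1, Tiparp, a target of the receptor (−0.56 ± 0.16, limma adjusted p = 0.0273). Cyp1a1 was low, at 8.04 to 11.8 and then 15 to 84.5 with dTAG13, with no called difference (limma, adjusted p = 0.931). Of 16 glutathione transferases, the difference was higher in 3, Gstm1, Gstm3 and Gstm6.

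Of the 46 genes that rose with dTAG13 and fell in DMSO and the 63 that did the reverse, a pair was chosen as examples after values were seen. Acaa2, a thiolase of fatty acid oxidation, went from 1065, 1056 and 1096 to 528, 356 and 320 with dTAG13 and from 1018, 1171 and 1114 to 3085, 3901 and 4115 in DMSO (difference −3.19 ± 0.23, limma adjusted p = 3.54e-06). Fabp5, a fatty acid carrier, went from 2270, 2327 and 2335 to 6112, 6411 and 7242 with dTAG13 and from 1928, 1794 and 1773 to 1780, 958 and 1316 in DMSO (difference 1.99 ± 0.19, limma adjusted p = 3.24e-05).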
